A study of Mus musculus with 82 samples.

Results

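The genes described here are the clustered zinc finger genes of the mouse. They are the protein-coding genes on chromosomes 1 to 19 whose symbol is Zfp followed by digits only and that have another such gene within 100 kb. The rule gave 208 members of 360 Zfp genes with such symbols and of 20556 protein-coding genes. The other 152 Zfp genes, here called dispersed, have no such neighbour. No measured value entered the choice.

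The study used mouse embryonic stem cells of a hybrid 129-C57BL/6 background, kept in medium with 2i and LIF, and its labels describe 82 samples in 32 groups. The values used here are lists of ChIP-seq peaks, stretches of the genome where an immunoprecipitated protein gave more reads than its surroundings, for Adnp and for HP1γ. The Adnp list holds 15026 peaks (14903 on chromosomes 1 to 19) and is tied to 3 ChIP replicates from otherwise wild-type cells whose Adnp carries the FlagAvi tag, which was captured on streptavidin. The HP1γ list holds 2047 peaks (1994 on chromosomes 1 to 19), none of which has the motif of Adnp according to the series, and is tied to 3 replicates with FlagAvi-tagged Cbx3, the gene that encodes HP1γ, and to 3 with the same tag and an Adnp knockout (KO). None of these cells had been given a treatment. Both lists are pooled over replicates, so no value has an error between samples. Which genotype an HP1γ peak was seen in cannot be told from the list, although its peak names point to the Adnp KO. Depth per peak is not known, and intervals below cover counting error only.

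Zinc finger proteins of the Zfp type bind DNA through tandem C2H2 fingers, and many carry a KRAB domain that recruits Trim28 and, through it, the H3K9 methyltransferase Setdb1 and HP1 proteins. Genes of this kind arose largely by tandem duplication and lie in clusters, and arrays of their fingers are known to carry H3K9 trimethylation themselves, mostly toward the end of the gene that encodes the fingers. Adnp is a zinc finger and homeodomain protein that forms the ChAHP complex with Chd4 and HP1 proteins.

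HP1γ peaks lay inside or within 5 kb of 19 of the 208 clustered Zfp genes (9.13%, 95% Wilson interval 5.93 to 13.8), against 4.06% of all protein-coding genes, a share 2.25 times as large. Of the 152 dispersed Zfp genes 11 had one (7.24%, 4.09 to 12.5), and of the 48 other coding genes within the cluster spans 4 had one (8.33%, 3.29 to 19.6). The intervals of these 3 groups overlap broadly, so the clustered genes were not separated from dispersed Zfp genes or from their own neighbours by this share. Since genes differ in length, peaks were also counted per Mb of gene and 5 kb flanks: 27 peaks gave 4.25 per Mb at clustered Zfp genes (exact Poisson interval 2.80 to 6.18), 1.95 at dispersed ones (1.12 to 3.17), 2.75 at other genes in the spans (0.749 to 7.04) and 0.852 over all protein-coding genes (0.799 to 0.908). Neighbouring peaks are not independent, and 5 of the 19 genes held more than 1 peak. With overlap of the gene body itself required, 13 members had an HP1γ peak (6.25%, 3.69 to 10.4), against 2.98% of all coding genes, and the remaining 6 had theirs in a flank only. The members with an HP1γ peak had a median length of 23446 bp, against 15732 bp for those without; the part of length in these shares was not tested.

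**Figure D1:**
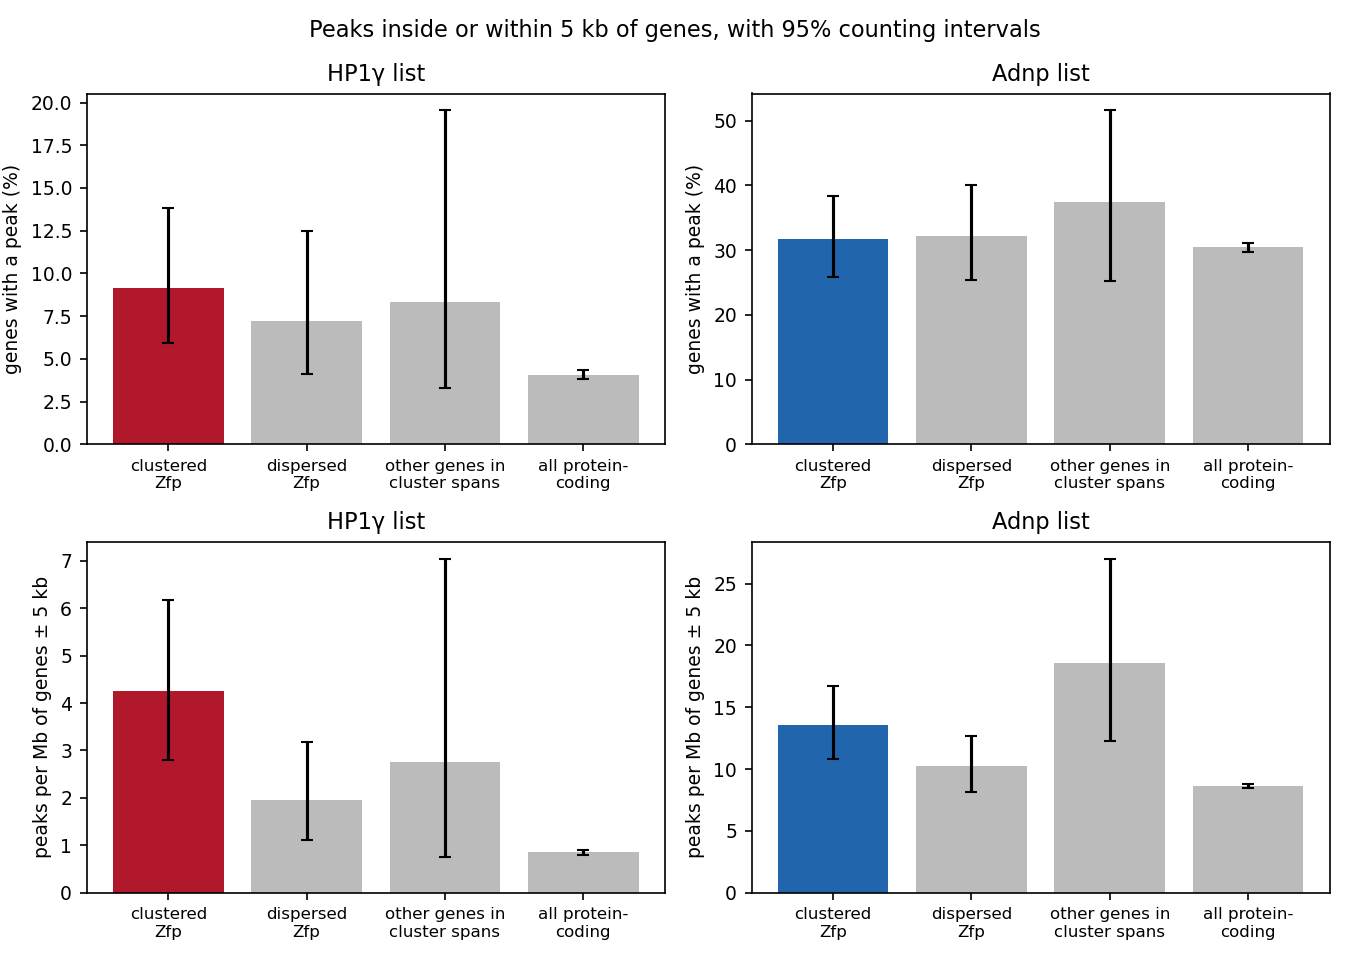
Upper panels plot the percent of genes with a peak of the HP1γ list (left) and the Adnp list (right) inside or within 5 kb, with 95% Wilson intervals, and lower panels plot peaks per Mb of gene and flank with exact 95% Poisson intervals, for clustered Zfp genes, dispersed Zfp genes, other coding genes in the cluster spans and all protein-coding genes. For HP1γ the clustered Zfp bar stands at 9.13% of genes and 4.25 peaks per Mb against 4.06% and 0.852 over all coding genes, while for Adnp the percentages are 31.7 and 30.4.

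Adnp peaks were more common in the clusters than HP1γ peaks, and their share of genes was near that of all coding genes. An Adnp peak lay inside or within 5 kb of 66 of the 208 clustered Zfp genes (31.7%, 25.8 to 38.3), against 30.4% of all protein-coding genes and 32.2% (25.3 to 40.0) of dispersed Zfp genes. Inside the gene body the members' share was 18.8% (39 genes, 14.0 to 24.6), against 21.5% of all coding genes. Per Mb, 86 peaks gave 13.5 (10.8 to 16.7), against 8.62 over all coding genes (8.45 to 8.80) and 18.6 (12.2 to 27.0) at the other coding genes in the same spans. Of the members with an Adnp peak, 48 had 1, 12 had 2 and 6 had 3 or more, and 10 of the 86 peaks were within reach of 2 or more members.

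Both kinds of peak were near 8 members (3.85%, 1.96 to 7.40, against 2.38% of all coding genes), HP1γ peaks alone were near 11, and 131 had neither. Of all 20556 coding genes, 834 had an HP1γ peak, 6253 an Adnp peak and 490 both. Shares with HP1γ peaks alone or with neither kind were not computed over all coding genes. The 11 and the 131 are therefore not read as traits of members. The 8 members with both were Zfp27, Zfp445, Zfp553, Zfp560, Zfp605, Zfp709, Zfp758 and Zfp944. At 5 of these 8 genes an HP1γ peak also lay on an Adnp peak, and 4 of the 13 HP1γ peaks assigned to them did so. A gene with such an overlap counts among these genes almost by definition, so these counts are no separate result. The other 14 HP1γ peaks were at members without an Adnp peak. Over all members 4 of the 27 HP1γ peaks shared at least 1 bp with an Adnp peak (14.8%, 5.92 to 32.5), close to the 15.2% of the whole HP1γ list (303 of 1994). These 4 lay at Zfp445, Zfp560, Zfp709 and Zfp758, the last also within reach of Zfp944, on Adnp peaks whose scores, the authors' value per peak of a kind not stated, were 16.5, 12.02, 27.9 and 13.8. The other 23 lay 737 to 99931 bp from the nearest Adnp peak, with a median of 22422 bp. The HP1γ list holds, per the series, only peaks without the motif of Adnp. How far this limits the counts of shared peaks and of HP1γ peaks alone was not tested.

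The 208 genes formed 50 clusters on 13 chromosomes, with 73 members on chromosome 7, 32 on chromosome 17 and 23 on chromosome 13. There were 21 pairs and 29 clusters of 3 or more genes, the largest with 15, and spans ran from 23.3 to 724 kb with a median of 114 kb. HP1γ peaks were at members of 15 clusters and Adnp peaks at members of 33. In 12 clusters there were both, in 3 HP1γ peaks alone (Zfp987-Zfp600, Zfp868-Zfp866 and Zfp623-Zfp707, each named by its outermost genes), in 21 Adnp peaks alone and in 14, with 39 members, neither. Most clusters with HP1γ peaks held few: 9 of the 15 had exactly 1.

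Larger clusters did not always hold more peaks. The 15-gene Zfp84-Zfp146 cluster on chromosome 7 (29768552 to 30169775) had 3 HP1γ peaks, at Zfp27 and Zfp382, and 15 Adnp peaks. The 14-gene Zfp712-Zfp748 cluster on chromosome 13 had no HP1γ peak and 2 Adnp peaks, both inside Zfp459, and the 13-gene Zfp677-Zfp943 cluster on chromosome 17 had 1 HP1γ peak, at Zfp53, and 1 Adnp peak. Of the next in size, the 10-gene Zfp180-Zfp94 cluster had 1 peak of each kind, the 8-gene Zfp871-Zfp563 cluster 0 HP1γ peaks and 1 Adnp peak, the 7-gene Zfp786-Zfp746 cluster 0 and 1, and the 7-gene Zfp553-Zfp689 cluster 1 and 7. The highest number of HP1γ peaks at members was 5, in the 9-gene Zfp978-Zfp933 cluster on chromosome 4 (147124882 to 147849126), which had 3 Adnp peaks. At members of Zfp709-Zfp961 there were 2 HP1γ and 3 Adnp peaks, at those of Zfp932-Zfp605 2 and 1, and at those of Zfp428-Zfp575 1 and 2. The small clusters Zfp445-Zfp105 on chromosome 9 and Zfp944-Zfp946 on chromosome 17, of 3 genes each, had 3 HP1γ peaks and 1 Adnp peak each. The reverse also occurred: the 4 genes of Zfp141-Zfp975 had 8 Adnp peaks and no HP1γ peak, the 3 of Zfp251-Zfp647 had 6 and 0, and the pair Zfp213-Zfp13 had 5 and 0.

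**Figure D2:**
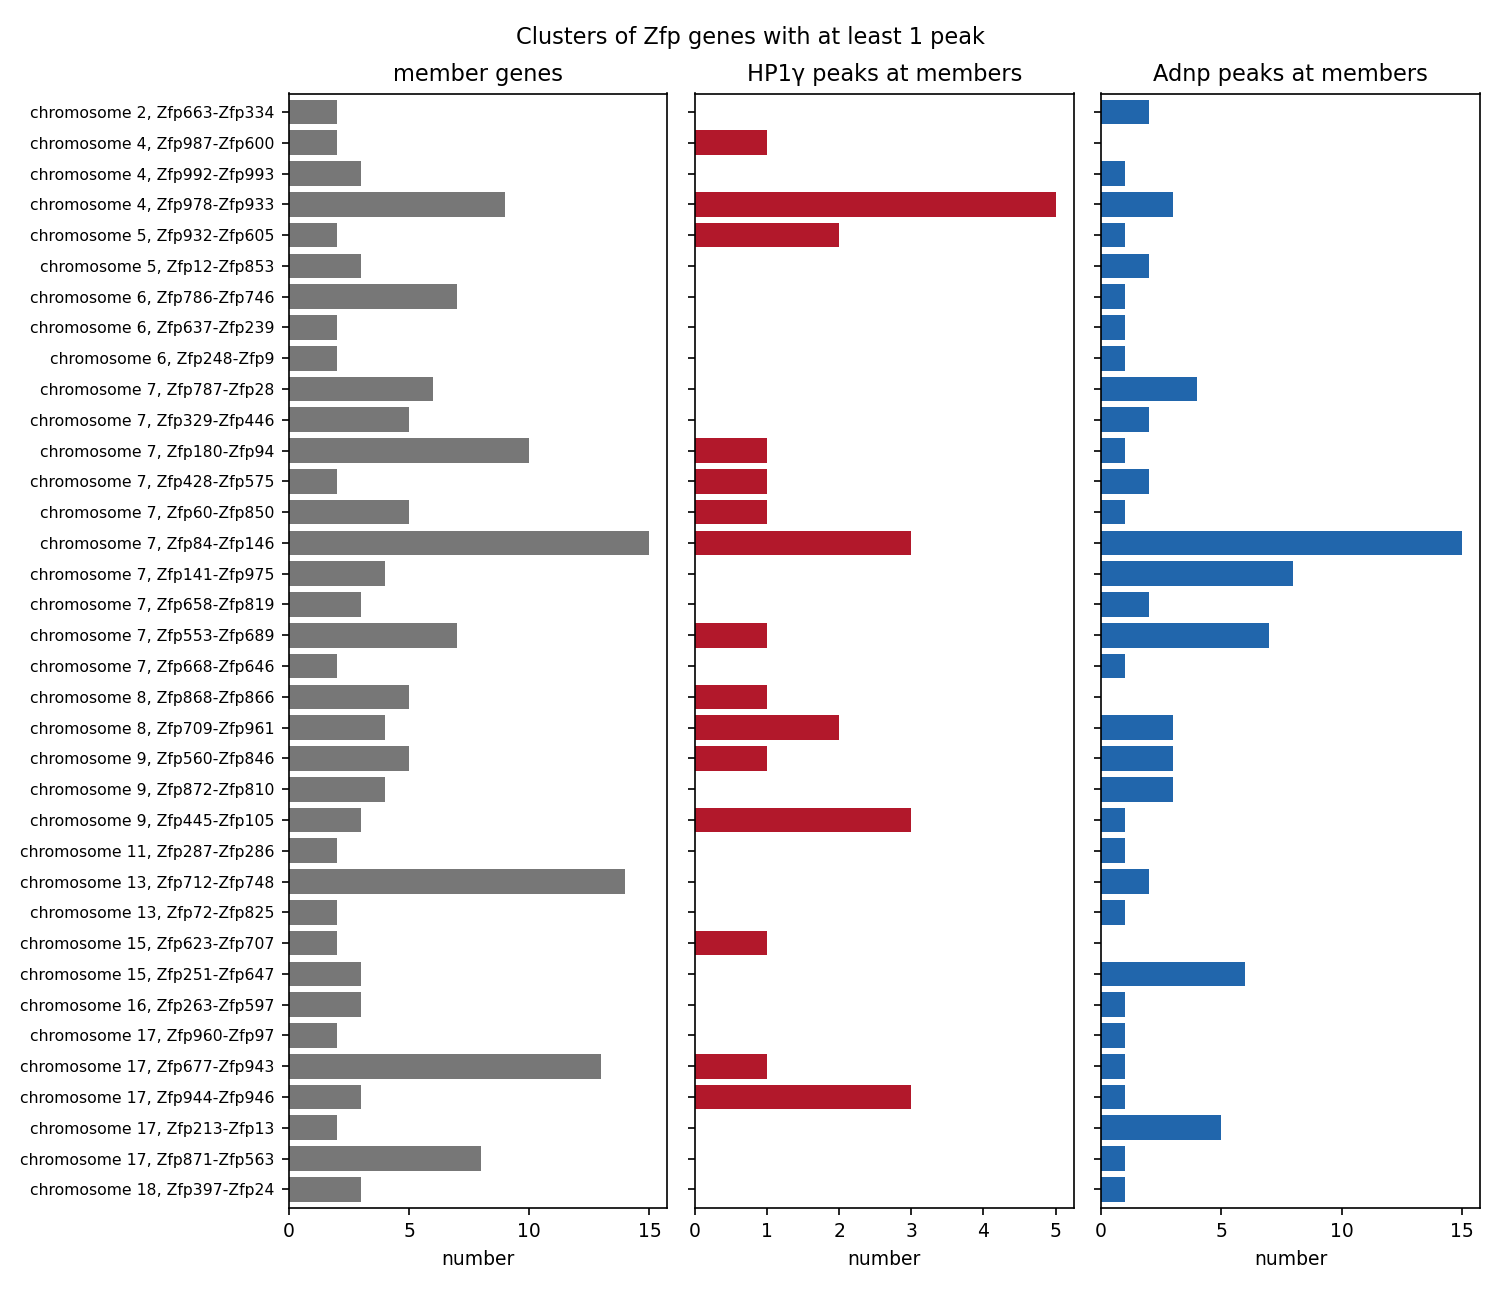
For each cluster with at least 1 peak, named by chromosome and outermost genes, bars give the number of member genes (left), of HP1γ peaks (middle) and of Adnp peaks (right) inside or within 5 kb of its members. The longest HP1γ bar, 5 peaks, belongs to the 9-gene Zfp978-Zfp933 cluster, and the 14-gene Zfp712-Zfp748 cluster has none.

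**Figure D3:**
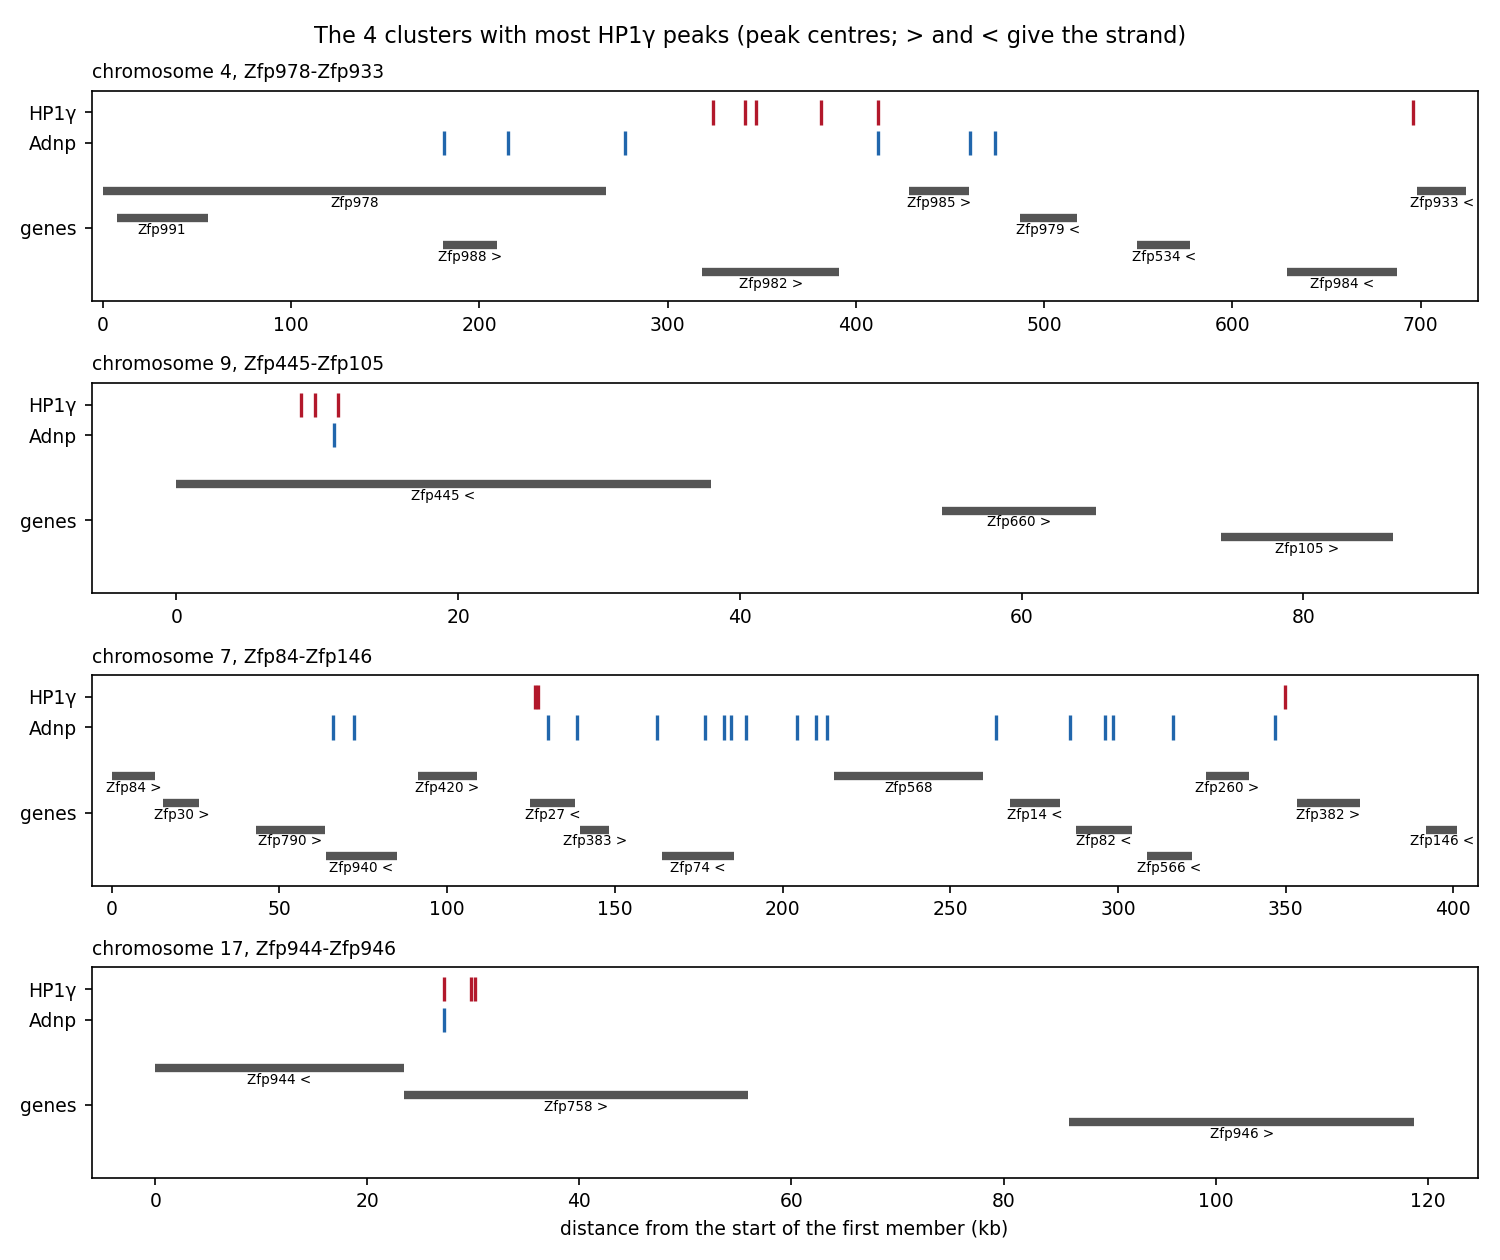
Maps to scale of the 4 clusters with most HP1γ peaks, with distance in kb from the start of the first member on the horizontal axis, gene bodies as grey bars with the strand given as > or <, and red and blue ticks for centres of HP1γ and Adnp peaks. In the Zfp978-Zfp933 map 4 of the HP1γ ticks lie over Zfp982, and in the Zfp445-Zfp105 map all 3 lie over Zfp445.

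Within the Zfp978-Zfp933 cluster the HP1γ peaks gathered on 1 gene. Zfp982 (gene ID 195531, chromosome 4, 147443114 to 147516064, plus strand) held 4, at 147448615 to 147448813, 147465845 to 147466143, 147471521 to 147472219 and 147506238 to 147506468, and no Adnp peak. They were spread over 57854 bp of its 72951 bp, at 7.68, 31.4, 39.4 and 86.7% of the way from its start. The fifth peak lay 2.05 kb beyond the other end of Zfp933 at the far side of the cluster, and a sixth in the span lay within 5 kb of no member.

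Zfp445 (gene ID 235682, chromosome 9, 122848910 to 122886851, minus strand), a KRAB zinc finger gene known for a part in keeping genomic imprints, held 3 HP1γ peaks packed into 3708 bp, of which 2953 bp were covered. They lay at 122857552 to 122857920, 122858329 to 122859189 and 122859537 to 122861259. The last, 1723 bp wide, ranked 8 by width among all HP1γ peaks on chromosomes 1 to 19 and overlapped an Adnp peak at 122859926 to 122860227. Measured on the annotated gene the peaks lie 69.7 to 76.7% of the way to the other end. The transcript start that RefSeq lists, however, lies at 122866006, inside the annotated gene, and from there the same peaks lie 5.61 to 8.27 kb downstream. The promoter at that listed start (RefSeq, GRCm38.p6, chr9:122865957-122866256, minus strand) is shown because the position of these peaks turns on it. It reaches from 250 bases before to 50 after the start, and capitals mark its 10 CG pairs:
Zfp445: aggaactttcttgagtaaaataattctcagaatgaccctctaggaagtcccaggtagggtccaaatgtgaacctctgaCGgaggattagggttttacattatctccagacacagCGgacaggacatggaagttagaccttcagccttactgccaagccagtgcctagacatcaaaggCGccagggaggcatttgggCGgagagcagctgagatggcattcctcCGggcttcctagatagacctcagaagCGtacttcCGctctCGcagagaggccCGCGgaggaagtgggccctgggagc
Neither list has a peak in this window.

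Zfp758 (gene ID 224598, chromosome 17, 22361430 to 22393909, plus strand) held 3 HP1γ peaks in 3120 bp near its start, at 22365093 to 22365373, 22367658 to 22367900 and 22368003 to 22368212, that is 3.80, 6.35 and 6.68 kb from it. The first overlapped an Adnp peak at 22365012 to 22365333. Zfp944 on the opposite strand starts within a few bases of Zfp758, at 22361428, so that peak is within reach of both genes and is the reason Zfp944 counts among the 19. The shared promoter region, shown because these neighbours depart from it in opposite directions, reads in the Zfp758 direction (RefSeq, GRCm38.p6, chr17:22361213-22361512, plus strand), with its 20 CG pairs in capitals:
Zfp758: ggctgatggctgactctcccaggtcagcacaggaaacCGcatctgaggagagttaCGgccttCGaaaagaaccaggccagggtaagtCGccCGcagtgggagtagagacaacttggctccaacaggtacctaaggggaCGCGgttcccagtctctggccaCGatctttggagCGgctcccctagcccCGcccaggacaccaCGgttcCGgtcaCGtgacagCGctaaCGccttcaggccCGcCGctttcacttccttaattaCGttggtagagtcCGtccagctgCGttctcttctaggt
The HP1γ peaks lie downstream of this window in Zfp758, and neither list has a peak in it.

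Pairs of HP1γ peaks were found at Zfp27 and Zfp605, toward or beyond the end opposite to the start. Zfp27 (chromosome 7, 29893331 to 29906569, minus strand) held peaks of 667 and 399 bp, at 29894325 to 29894991 and 29895491 to 29895889, 1.33 and 2.36 kb before its other end. Its Adnp peaks lay elsewhere, in the middle of the gene (score 27.9) and just upstream (6.80). At Zfp605 (chromosome 5, 110110028 to 110131536, plus strand) both HP1γ peaks, of 386 and 452 bp, lay past the gene, 1.94 and 3.35 kb beyond its other end. Its single Adnp peak, with a score of 9.79, lay in its middle part.

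The remaining 14 genes had 1 HP1γ peak each. In Zfp553, a short gene of 5137 bp on chromosome 7, the peak at 127234928 to 127237361 was 2434 bp wide, the widest at any member and rank 3 in the whole list, with its centre 60.0% along the gene. Zfp180 had a peak of 604 bp 1.93 kb before its other end, and Zfp850 one at 68.0% of its length. Peaks in the early part of the gene were those of Zfp53 at 16.7%, Zfp600 at 27.1% and Zfp709 at 32.0%, the last of them 492 bp wide and on an Adnp peak. Past the other end lay the peaks of Zfp933, at 2.05 kb, and Zfp964, at 1.83 kb, and Zfp382 had its peak 3.49 kb before the start. Zfp707 and Zfp575 had 1 peak each but no strand in the tables used, so these are not placed. None of the 27 peaks overlapped another coding gene.

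At 2 members the HP1γ peak covered the start itself. In Zfp882 (gene ID 382019, chromosome 8, 71908606 to 71918851, plus strand) a peak of 1151 bp at 71907835 to 71908985, rank 26 by width, took in the whole promoter window. In Zfp560 (gene ID 434377, chromosome 9, 20345136 to 20385182, minus strand) a peak of 211 bp at 20385024 to 20385234 covered the last 126 bases of the window, and an Adnp peak of 355 bp covered bases 44 to 300 of it. These promoters, from RefSeq (GRCm38.p6, chr8:71908356-71908655, plus strand, and chr9:20385109-20385408, minus strand), are shown because HP1γ peaks cover them, and were picked after their values were seen. Capitals mark the bases under the HP1γ peak:
Zfp882: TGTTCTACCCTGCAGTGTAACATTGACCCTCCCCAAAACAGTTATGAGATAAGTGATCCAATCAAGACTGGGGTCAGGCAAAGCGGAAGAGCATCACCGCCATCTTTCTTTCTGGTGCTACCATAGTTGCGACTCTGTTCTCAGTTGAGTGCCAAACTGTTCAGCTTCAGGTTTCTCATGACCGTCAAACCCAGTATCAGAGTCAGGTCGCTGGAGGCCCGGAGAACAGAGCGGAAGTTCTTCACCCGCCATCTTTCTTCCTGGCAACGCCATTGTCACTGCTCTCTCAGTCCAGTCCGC
Zfp560: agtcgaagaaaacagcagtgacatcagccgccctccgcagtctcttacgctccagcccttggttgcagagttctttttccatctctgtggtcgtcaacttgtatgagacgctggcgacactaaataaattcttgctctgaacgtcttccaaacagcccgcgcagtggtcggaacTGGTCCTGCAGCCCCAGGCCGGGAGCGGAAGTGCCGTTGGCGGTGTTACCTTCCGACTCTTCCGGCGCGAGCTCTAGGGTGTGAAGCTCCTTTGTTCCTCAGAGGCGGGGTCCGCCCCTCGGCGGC
A search of all 200 promoter windows of the 180 members with listed starts found HP1γ peaks in these windows alone (1%, 0.275 to 3.57), against 0.483% of 20084 windows of all coding genes. Adnp peaks were in the windows of Zfp560 and Zfp810 (1%, against 1.25%). In Zfp810 (chr9:22307589-22307888, minus strand) the Adnp peak at 22307831 to 22308300, with a score of 31.4, covers only the outermost 58 bases, in capitals:
Zfp810: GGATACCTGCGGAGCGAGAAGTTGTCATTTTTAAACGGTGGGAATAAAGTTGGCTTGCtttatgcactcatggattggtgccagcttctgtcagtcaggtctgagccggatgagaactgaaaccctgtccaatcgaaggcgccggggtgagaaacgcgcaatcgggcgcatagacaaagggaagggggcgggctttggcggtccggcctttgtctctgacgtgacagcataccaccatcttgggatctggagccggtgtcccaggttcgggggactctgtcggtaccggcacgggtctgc
The Adnp share is near that of all windows. The HP1γ share rests on 2 windows, and its interval includes the share of all windows.

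The promoter windows of members held a median of 11 CG pairs (quartiles 7 and 17), against 17 (9 and 25.5) at dispersed Zfp genes and 14 (4 and 25) over all coding genes. The members' quartiles thus lay within those of all coding genes. Their median GC content was 53.2% (48.3 and 58), against 58.3% (52.2 and 67.7) at dispersed Zfp genes and 57% (48.7 and 65) over all coding genes.

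The HP1γ peaks of members lay in every part of the gene and in both flanks, and no part was separated from its share over all coding genes. Runs within single genes weigh in these counts: the first part includes the 3 peaks of Zfp758, and the last part the 3 of Zfp445 and the 2 of Zfp27. Of the 25 peaks at genes with a known strand, 2 lay in the upstream flank, 9 in the first of 3 equal parts of the gene, 2 in the middle part, 8 in the last part and 4 in the downstream flank. The first part thus had 36% (20.2 to 55.5) and the last 32% (17.2 to 51.6), with 8% (2.22 to 24.97) in the middle part. Over all coding genes (771 peaks) the flanks and parts had, in the same order, 13.1, 32.3, 20.4, 24.6 and 9.60%, each within the members' interval. By distance, 13 of the 25 were nearer to the other end than to the start (52%, 33.5 to 70.0), against 45.1% over all coding genes and 10 of 14 (71.4%, 45.4 to 88.3) at dispersed Zfp genes. Counted by gene, 7 members had all their peaks nearer the start, 8 had all nearer the other end, and Zfp982 had both.

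Close to gene ends the counts leaned to the other end, on small numbers. Of 13 HP1γ peaks within 5 kb of an end, 8 were nearer the other end (61.5%, 35.5 to 82.3), against 142 of 342 (41.5%) over all coding genes, and within 2 kb it was 4 of 6, against 67 of 191 (35.1%). Within 1 kb the peaks of Zfp882 and Zfp560 remained, both at the start, against 27 of 131 (20.6%) nearer the other end over all coding genes. The lean over all peaks rested on where a gene is taken to begin: with the outermost start listed by RefSeq in place of the gene end, the counts from the upstream to the downstream flank were 2, 10, 4, 5 and 4, and 10 of 25 peaks (40%, 23.4 to 59.3) were nearer the other end. The 3 peaks of Zfp445 made that change. For 130 of the 180 members with a strand the listed start and the gene end lay within 100 bp of each other, and for 10 they were more than 5 kb apart. A preference of HP1γ for 1 end of these genes was therefore not detectable with 25 peaks.

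**Figure D4:**
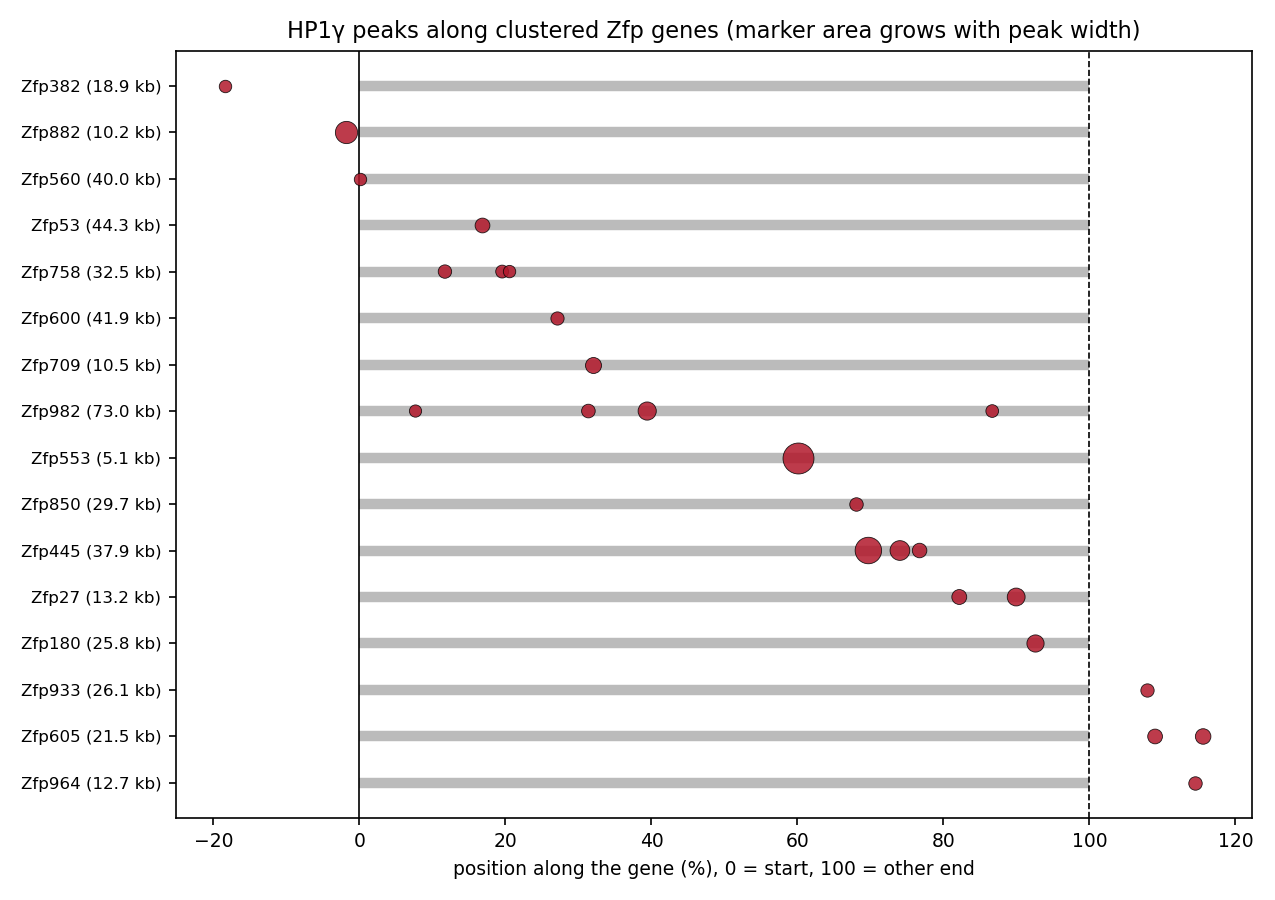
Each row is a member with a known strand and an HP1γ peak, with its length in kb. Circles give peak centres as a percent of the gene, from its start (0, solid line) to its other end (100, dashed line), and their area grows with peak width. The 3 circles of Zfp758 lie between 11.7 and 20.6%, those of Zfp445 between 69.7 and 76.7%, and those of Zfp605 and Zfp964 past 100.

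**Figure D5:**
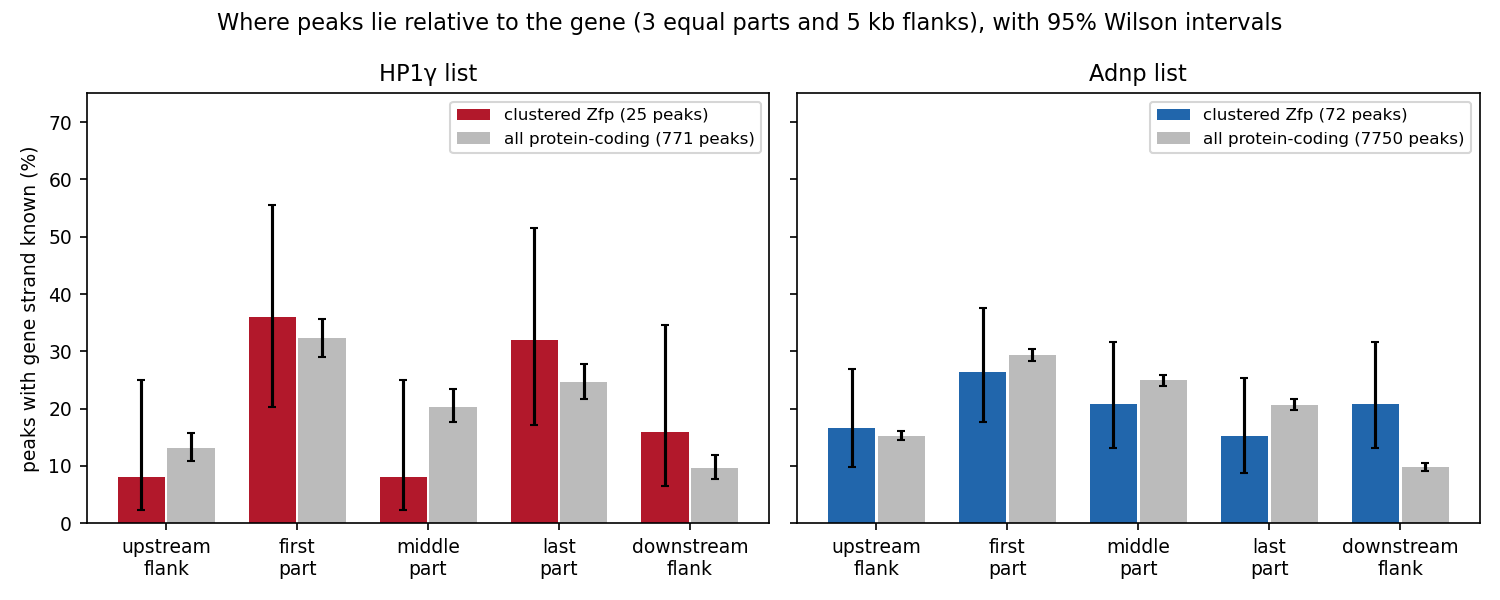
Bars give the percent of peaks in the 5 kb upstream flank, the 3 equal parts of the gene and the 5 kb downstream flank, with 95% Wilson intervals, for clustered Zfp genes (coloured) and all protein-coding genes (grey), for the HP1γ list (left) and the Adnp list (right). For HP1γ at clustered Zfp genes the first and last parts stand at 36 and 32% and the middle part at 8%, with intervals that overlap one another and the grey bars.

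Adnp peaks at members were spread along the gene. Of 72 with a strand, 12 lay in the upstream flank, 19, 15 and 11 in the 3 parts in order, and 15 in the downstream flank. The last of these shares was 20.8% (13.1 to 31.6), against 9.79% (9.15 to 10.5) over all coding genes and 15.6% (8.71 to 26.4) at dispersed Zfp genes. Gene bodies made up 4.64 of the 6.36 Mb counted at members, against 982 of 1122 Mb over all coding genes. Flanks thus weighed more at members, and their part in this share was not tested. Of the 72 peaks, 32 (44.4%, 33.5 to 55.9) were nearer the other end, against 42.6%. Scores of all 86 Adnp peaks at members had a median of 20.1 (quartiles 12.4 and 28.9), against 21.2 (13.9 and 33.6) in the list. Of the 86, 16 (18.6%) exceeded the upper quartile of the list.

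The strongest Adnp peak near a member, with a score of 331 and rank 8 in the list, lay at 127437678 to 127438306 on chromosome 7, 4.14 kb beyond the other end of Zfp689. Zfp13 followed with 110 (chromosome 17, 23571516 to 23572554), inside the gene toward its other end, and Zfp647 with 100.2 (chromosome 15, 76925748 to 76926384). Near the start were the peaks of Zfp72, with a score of 96.1 at 0.858 kb, and of Zfp809, a gene known for silencing retroviruses, with 72.3 at 0.923 kb. The other members among the top 10 were Zfp114 (65.9), Zfp82 (64.7), Zfp846 (64.1), Zfp978 (53.6) and Zfp128 (52.1). None of these 10 was among the 19 of 208 members (9.13%) with an HP1γ peak. With 10 genes this cannot be told apart from that share, and the HP1γ list holds only peaks without the motif of Adnp. By number, Zfp74 and Zfp141 led with 5 Adnp peaks each, and all 5 at Zfp141 lay inside it, while Zfp13 and Zfp764 had 4; Zfp74, Zfp141 and Zfp764 were named after their values were seen.

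The proteins through which KRAB zinc finger proteins silence, and those of the ChAHP complex, were taken as a list of 24 genes. Of these 15 had an Adnp peak inside or within 5 kb (62.5%, 42.7 to 78.8), against 30.4% of all coding genes of chromosomes 1 to 19, and 2 had an HP1γ peak (8.33%, 2.32 to 25.8), against 4.06%. The list holds 2 genes on chromosome X, and it was drawn up with earlier results of these data known. The part of gene length in these shares was not tested. The highest Adnp scores were at Morc3 (75.7), which silences retroelements, Pogz (65.5), an HP1-binding zinc finger protein, and Uhrf1 (57.2), which guides maintenance of DNA methylation. The HP1γ peaks were at Atf7ip (3), a partner of Setdb1, and Hdac2 (1). The H3K9 methyltransferase Setdb1 had 1 Adnp peak (19.2), and Trim28, the corepressor that KRAB domains bind, had neither kind of peak.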

How the data were processed

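ChIP-seq peak positions were used as deposited by the authors, in lists without header lines that give chromosome, start, end, name and a score. The score in the Adnp list, deposited by the authors and of a kind not stated, was used only to rank and describe peaks within that list, and it is 0 throughout the HP1γ list. The tools named per the submitters' processing notes are MACS2, Bowtie 1.0.0, bcl2fastq 1.17 and STAR 2.5.0a, without their roles, and the build is mm10 (GRCm38). Not given in the sources used here are the settings of peak calling and the treatment of reads that match several near-identical Zfp genes.

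Genes came from RefSeq tables for GRCm38.p6. Genes starting below 3 Mb were left out, since such positions belong to scaffolds. A strand came from the promoter table (16456 coding genes, 180 of 208 members). Members whose spans lay at most 100 kb apart were joined into clusters. A peak counted for a gene when any base lay inside it or within 5 kb. For its place it was assigned to the member whose body it overlapped most, or without overlap to the one with the nearest end. Ties were broken by symbol, and the peak was placed along that gene by its centre. Exon and protein tables were not used here, so the planned protein features were not computed. Shares have 95% Wilson intervals and densities exact Poisson intervals, and no p-value was computed because the lists are pooled. The depth of the libraries is not known from these lists, so precision follows from the number of peaks or genes. The assignment was tested on simulated data, where 190 of 190 planted peaks were recovered.

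Genes named are all members with an HP1γ peak, the 10 with the highest Adnp score and all with both kinds. Clusters named are the 8 with most members and the 8 with most HP1γ peaks, with ties broken by name. Other genes and clusters are said to have been chosen after their values were seen, or are given to show the range of clusters. Members and lists were chosen with earlier results of these data known. Alternatives changed windows, cluster distance, peak joining, overlap and the score minimum. Tables were handled with pandas 2.3.3 and NumPy 2.4.6 in Python 3.11.15, intervals came from SciPy 1.17.1, and figures from matplotlib 3.10.9.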

Additional observations from a re-analysis of the deposited data

How the results depend on the processing

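Of 41 alternatives, 32 moved their result by less than its 95% interval or, for counts, less than 1.5 times, and 9 moved it further. With a window of 20 kb the share of members with an HP1γ peak was 16.3% (7.14% of all coding genes). The share with an Adnp peak was 49.0% with 20 kb (45.5% of all coding genes), 22.6% with 1 kb (23.7%), 18.8% inside the gene (21.5%) and 18.3% with the higher-scoring part of the list (19.2%), near the background each time. The end to which the HP1γ peaks leaned changed with the choices made. Of those within 1 kb of an end, 0 of 2 were nearer the other end, in place of 8 of 13 within 5 kb. With the outermost listed start, 40% of all oriented peaks were, in place of 52%, inside its interval but on the opposite side of an even split, while the share within 5 kb of an end stayed 61.5%. With peaks of at least 600 bp, chosen after seeing the data, 71.4% (5 of 7) of all oriented peaks were. Those 5 include the wide peaks of Zfp445, which are nearer the start once its listed start is used. Over whole cluster spans there were 133 Adnp peaks in place of 86 at members. Against the higher-scoring Adnp peaks, 1 of the 27 HP1γ peaks of members overlapped one (3.70%, 0.657 to 18.3). The same share was not computed for the whole HP1γ list, so it cannot be compared with that list. No paired analysis was possible because both lists are pooled over replicates and no result comes from a test; for the same reason no replicate could be left out. Zfp genes are near-identical in part, so a peak at one copy may hold reads of another, which was not tested. A gene with no listed peak may still have been bound below the authors' threshold or, for HP1γ, at a site with the motif of Adnp.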

Other observations

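HP1γ peaks at clustered Zfp genes included more wide ones than the list as a whole. Of the 27 peaks, 7 were at least 600 bp wide (25.9%), against 227 of 1994 (11.4%) on chromosomes 1 to 19, and the median widths were 347 and 305 bp. By place, 4 of the 7 lay in the last part of the gene, at Zfp445, Zfp27 and Zfp180, 2 in the middle part, at Zfp553 and Zfp982, and 1 in the upstream flank, over the start of Zfp882. The limit of 600 bp was chosen after the widths were seen, and with the listed start of Zfp445 its 2 wide peaks move to the first and middle parts.

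The cluster spans, with 5 kb on either side, held 35 HP1γ peaks, of which 27 were within reach of a member. In the Zfp60-Zfp850 cluster on chromosome 7 there were 3 in the span but 1 at a member, Zfp850. The HP1γ peak centred 65.4 kb from the start of that cluster overlapped no Adnp peak. Every other HP1γ peak in the spans but away from members overlapped one. The Zfp787-Zfp28 span held 3 of these, and those centred 125.55 and 126.124 kb from its start lay on the same Adnp peak. Of the 27 HP1γ peaks at members 4 overlapped an Adnp peak (14.8%), close to the 15.2% of the whole HP1γ list (303 of 1994). This comparison was looked at after the values were seen. Among clusters with neither kind of peak at a member, 2 had 5 or more genes, Zfp628-Zfp580 and Zfp738-Zfp273.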
